A study of Arabidopsis thaliana with 21 samples.

Results

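Young roots of Arabidopsis thaliana grown on soil were compared with young roots grown on plates, on 6 of the 21 ATH1 arrays of a developmental root series. The rule that picks these arrays reads sample title and growth label, and no measured value. All plants were wild type of the accession Col-0 in continuous light, and no mutant, transgene or added agent was involved. Group ATGE_3, with 3 arrays, held roots of plants on soil at 23 °C and 65% relative humidity, and its label states that soil came along with the sampled tissue. Group ATGE_94, with 3 arrays, held roots from 0.5x GM, a nutrient medium, at 20 °C, with no humidity given and no added sucrose listed. By their looks most ATGE_94 plants matched a reference at 7 days of age, and no such statement is made for ATGE_3. Substrate, temperature, humidity and the set of plants therefore changed together, and their effects cannot be told apart. A later pair of harvests, ATGE_9 on soil and ATGE_98 on the same medium without added sucrose, shares no array with the young pair and was used to ask whether an effect was of like size in older roots.

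A root on soil meets microbes, grit and a changing supply of water and ions in the dark, whereas a root on a plate grows along or in a clear gel, often in light. Roots answer contact, wounding and microbes through calcium signals, jasmonate, salicylate and stored defence compounds such as glucosinolates. Light reaching a root switches on parts of the flavonoid pathway and of plastid development that a buried root keeps low. Root hairs, the tubular outgrowths of the epidermis, and the division zone at the tip are further structures that vary with the growth medium.

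The 6 arrays were of similar brightness, with median signals between 40.2 and 44.1 on the authors' linear MAS5 scale. Over all non-control probe sets, log2 signals of arrays within a group correlated with Pearson's r of 0.959 to 0.966, and those of a soil with a plate array with 0.904 to 0.916, as a description across probe sets. The GAPDH control probe sets gave a 3'/5' ratio, which rises as RNA is degraded or incompletely copied, of 1.53 ± 0.121 in ATGE_3 and 0.718 ± 0.107 in ATGE_94 (mean ± SD, n = 3), and the groups did not overlap. That of ubiquitin was 2.64 ± 0.101 and 2.14 ± 0.265, also without overlap. The part of RNA quality in the results was not tested. The labelled tissue was checked through PYK10, the abundant beta-glucosidase of root endoplasmic reticulum bodies, whose signal was 3032, 2873 and 3042 on soil and 2447, 2359 and 3091 on plates. It was bright on every array. It was the only one of 8 listed root identity markers with a named probe set. Whether A, B and C came from separate cultures is not stated, so the p-values rest on a spread that may be technical. In bulk tissue, fewer cells of a type and less RNA per cell cannot be told apart.

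Of 15284 tested probe sets, 10015 differed between soil and plate roots at an adjusted p under 0.05 in limma, a share of 65.5%. On soil 5363 were higher (35.1%) and 4652 were lower (30.4%). A fitted change of at least 2-fold was reached by 1398 of the higher (9.15% of those tested) and 1368 of the lower (8.95%). Small changes were thus common, and a count of passing genes in a list has to be read against these shares. How many of all tested probe sets had no overlap between soil and plate arrays is not given here. Lack of overlap is therefore only a description of the genes for which it is stated. The lists were measured only in part, so statements on them cover tested members alone. Tested were 10 of 113 listed cell cycle genes, 6 of 127 for salicylate and pattern-triggered defence and 3 of 25 for flavonoids. For nuclear photosynthesis genes the coverage was 12 of 77, and for root hair genes 6 of 60. The median log2 difference over all tested probe sets was 0.05, and 0.04 with dim groups held at their bound, so list medians below are to be set against values near 0. A group was called dim for a gene when the signal lay at or under the 40th percentile of the array on all 3 of its arrays, and the fold is then given as a lower bound. Medians with dim groups at their bound leave out genes dim in both groups, so they can cover fewer genes. Where only some arrays of the lower group were above that percentile, the fold is the fitted ratio and no bound. This holds for HTR12, XTH33, petG and ndhE, with 1 of 3 arrays above it, and for EXPA7, PUB19, PR-1-LIKE, Hop3 and ICU2, with 2 of 3.

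**Figure D1:**
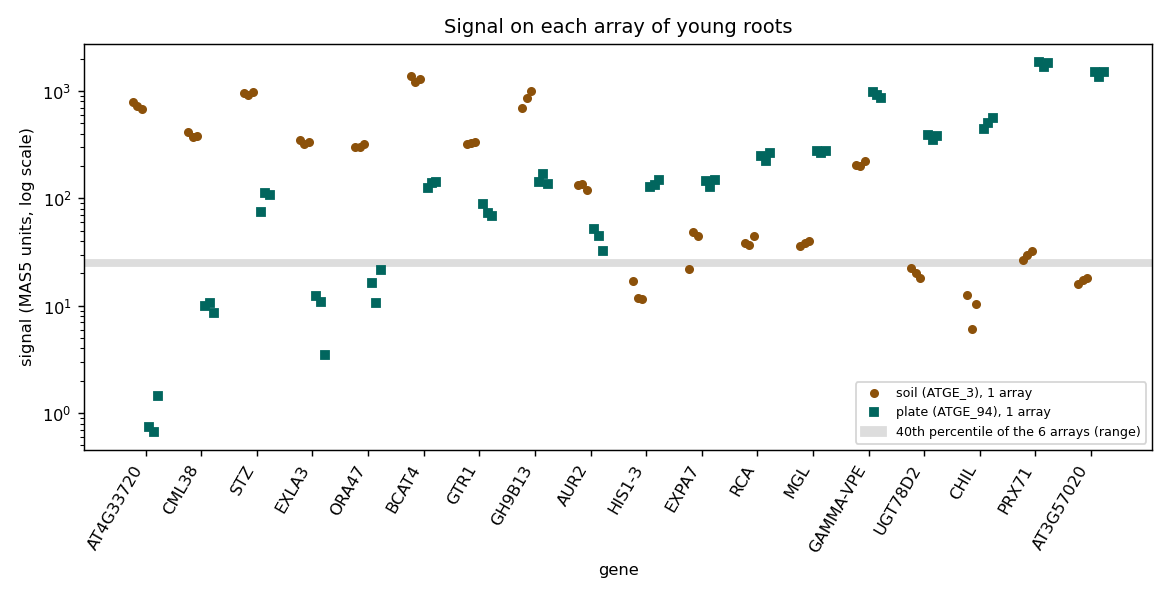
Signal of 18 genes on each of the 6 arrays of young roots, on a log axis in MAS5 units; circles are soil arrays, squares plate arrays, and the grey band spans the 40th percentiles of the 6 arrays. For each of the 18 genes the soil and plate arrays do not overlap. The ranking rule required this of AT4G33720, CML38, EXLA3, CHIL, PRX71 and AT3G57020.

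Some genes of calcium signalling stood among the largest rises on soil. CML38 (AT1G76650), a calmodulin-like protein, a class of calcium sensors, gave signals of 415, 374 and 385 on soil and 9.96, 10.6 and 8.56 on plates, at least 16.3-fold higher on soil (adjusted p = 1e-12). Its relatives CML37 (AT5G42380), at 121, 144 and 136 against 2.94, 2.2 and 4.69, and CML39 (AT1G76640), at 74.2, 68.7 and 67.4 against 1.46, 1.07 and 0.746, were at least 5.57-fold and 2.93-fold higher (adjusted p = 7.1e-09 and 1.6e-06). All 3 genes were bright on every soil array and dim on every plate array. CML23 rose in the same way, by at least 4.96-fold to 119 ± 5.16 (SD, n = 3, adjusted p = 1.4e-12). The family did not move as a whole, since of 7 tested calmodulin-like and touch genes 3 rose and 2 fell, or 3 and 3 with arrays centred on their medians. Their median log2 difference was −0.15, or 1.03 with dim groups at their bound. The second median covers fewer of these genes, since those dim in both groups are left out. CML39, named by its rank, was not counted in that list. CML42 fell by 1.9-fold, from 197 ± 10.2 on plates to 104 ± 9.24 on soil (adjusted p = 8.6e-10).

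Regulators of stress and jasmonate rose as well. STZ (AT1G27730), also known as ZAT10, a zinc finger repressor induced by many stresses, gave 965, 922 and 977 on soil and 74.8, 113 and 107 on plates. Its lowest soil array was far above its highest plate array, and the fold was 9.87 (log2 3.3 ± 0.11 SE, adjusted p = 1.1e-17). ORA47 (AT1G74930), an AP2/ERF factor that switches on jasmonate synthesis genes, gave 299, 301 and 323 against a dim 16.4, 10.7 and 21.6, at least 12.8-fold higher (adjusted p = 4.8e-13). OPCL1 (AT1G20510), a ligase that prepares jasmonate precursors for shortening in the peroxisome, rose 4.33-fold, from 83 ± 9.01 to 359 ± 27.1 (adjusted p = 2.8e-15). The wider jasmonate list was mixed, with 3 of 10 tested genes higher and 4 lower on soil (median log2 −0.14, or −0.10 with dim groups at their bound). Jasmonate response itself runs through the MYC factors. The transcription factor MYC3 was lower on soil, at 73.6 ± 5.07 against 144 ± 14.1 (adjusted p = 1.3e-08), as was JAL33, a jacalin-type lectin, at 1209 ± 51.4 against 2488 ± 385 (adjusted p = 1.7e-10). MYC4, a close relative of MYC3, gave 53.7 ± 3.33 and 55.2 ± 8.53, and its difference did not pass (adjusted p = 0.88). All 3 tested jacalin lectins were lower on soil, JAL22 and JAL34 at log2 −0.51 and −0.27 (adjusted p = 5.7e-07 and 0.00077).

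Defence genes linked to salicylate and to microbial patterns were mostly higher on soil. The largest fitted rise of the whole comparison was that of AT4G33720, which the annotation used here leaves without a name. It gave 786, 722 and 688 on soil and 0.751, 0.672 and 1.45 on plates, at least 30.5-fold higher (adjusted p = 8.7e-18). It was dim on every plate array and bright on every soil array. Of the 6 tested members of this list 5 rose and 1 fell (median log2 1.03, or 1.02 with dim groups at their bound). GRX480 (AT1G28480), a glutaredoxin that works with TGA transcription factors between the salicylate and jasmonate pathways, gave 264, 285 and 273 against 58.3, 54.2 and 56.9 and rose 4.85-fold (adjusted p = 1.1e-14). PR-1-LIKE (AT2G19990), a relative of the pathogenesis-related protein PR1, rose 2.49-fold from 29.9 ± 6.03 to 73.5 ± 4.66 (adjusted p = 4.1e-08). The chitinase gene CHI (AT2G43570) and the immune regulator SAG101 were also higher, CHI at 101 ± 4.65 against 61.7 ± 6.95 (adjusted p = 6.7e-06) and SAG101 at 31.6 ± 5.24 against a dim 18.7 ± 0.973 (adjusted p = 0.0051). BIK1 (AT2G39660), a kinase that relays signals from pattern receptors, was the one that fell, from 209 ± 21.1 to 119 ± 5.71 (adjusted p = 4e-07). WRKY22, a transcription factor of pattern-triggered immunity, rose 2.59-fold to 128 ± 16.5 (adjusted p = 2.3e-09), while WRKY6 fell 3.15-fold to 54.8 ± 6.13 (adjusted p = 7.2e-14).

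Small antimicrobial proteins were divided. PDF2.1 (AT2G02120), a plant defensin, rose from 40.6, 50.7 and 51.4 on plates to 243, 229.9 and 210.1 on soil, 4.81-fold with no overlap (adjusted p = 7.4e-15). PDF2.5 rose 2.08-fold to 329.7 ± 20.4 (adjusted p = 2.1e-09) and the osmotin-like gene OSM34 1.45-fold to 535 ± 28.1 (adjusted p = 1.1e-07). LCR69 and LCR68, members of the same cysteine-rich family with far brighter signals, fell. LCR69 went from 2202 ± 382 to 1456 ± 45.5 (adjusted p = 3.1e-06) and LCR68 from 1707 ± 166 to 1358 ± 76.1 (adjusted p = 0.00071). In the list of defensins, thionins and chitinases 5 of 9 rose and 2 fell. DTX50 (AT5G52050), an efflux carrier of the MATE family, was at least 6.96-fold higher on soil, at 174, 159.6 and 167 against a dim 2.86, 2.06 and 2.68 (adjusted p = 1.7e-11). PUB19, a U-box ubiquitin ligase, rose 5.76-fold to 148 ± 7.27 (adjusted p = 1.4e-11), and in its family 4 of 7 genes rose. The remaining 3 did not pass, with adjusted p of 0.17 for PUB23, 0.29 for PUB24 and 0.84 for PUB43.

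Genes that make and move glucosinolates, the sulfur-rich defence compounds of crucifers, were higher on soil. BCAT4 (AT3G19710), the aminotransferase that starts methionine chain elongation, gave 1368, 1213 and 1298 on soil and 126, 140.4 and 143 on plates, a rise of 9.46-fold (log2 3.24 ± 0.08, adjusted p = 3.2e-20). The glucosinolate importer GTR1 (AT3G47960) gave 321, 326 and 333 against 89, 72.4 and 69 and rose 4.28-fold (adjusted p = 3.8e-15), and GTR2 (AT5G62680), a second importer, rose 1.69-fold to 544 ± 41.2 (adjusted p = 1.8e-07). For each of these 3 genes all soil arrays lay above all plate arrays. GSTU20, a glutathione transferase placed in the core pathway, rose 2.51-fold to 145 ± 22.7 (adjusted p = 5.3e-09), and the glucosyltransferase UGT74B1 1.22-fold to 366 ± 39.97 (adjusted p = 0.0016). AT2G31790 rose 2.18-fold to 159 ± 7.29 (adjusted p = 6.5e-11). In all, 6 of 7 tested list genes rose, with a median log2 of 1.13, and AOP1 gave 25 ± 3.58 and 25.7 ± 2.37 (adjusted p = 0.82). These 7 are the list members that the array annotation named and that passed the filter, out of 62 listed. APS3 (AT4G14680), an ATP sulfurylase at the entry of sulfate assimilation, rose 3.44-fold from 52.6 ± 9.38 to 181 ± 30.4 (adjusted p = 6.4e-11), and the sulfite reductase gene SIR 1.37-fold to 664 ± 42.4 (adjusted p = 2.3e-05). APS4 was lower, at 477 ± 17.5 against 552 ± 42.8 (adjusted p = 0.014, or 0.072 without replicate C of ATGE_94).

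Wall-modifying genes divided by type. EXLA3 (AT3G45960), an expansin-like protein, gave 352, 318 and 336 on soil against a dim 12.4, 10.9 and 3.48 on plates, at least 14-fold higher (adjusted p = 1.3e-11). EXLA1 rose 4.19-fold to 708 ± 80.6 and EXLA2 2.1-fold to 62.8 ± 1.86 (adjusted p = 8.7e-16 and 0.00014). EXPB2 and EXPA8 were higher and dim on plates, at 38.8 ± 3.57 and 31.1 ± 5.91 on soil (adjusted p = 0.00058 and 4.5e-05). Of 14 tested expansin genes 8 rose and 3 fell (median log2 0.37, or 0.34 with dim groups at their bound), and the 3 that fell were EXPA7, EXPA18 and EXPB1. GH9B13 (AT4G02290), a cellulase-type endoglucanase, gave 702, 855 and 999.9 against 143, 167 and 136 and rose 5.69-fold (adjusted p = 6e-15). The xyloglucan-modifying genes XTH19, XTH20, XTH21 and XTH33 rose 2.64-, 2.55-, 2.91- and 2.84-fold (adjusted p = 1.1e-09, 1.4e-10, 1.1e-07 and 4.3e-09). TBL36, of a family in which several members acetylate wall polymers, rose 2.89-fold from 362 ± 31.3 to 1046 ± 25 (adjusted p = 9.8e-14). Among the wall genes listed by symbol, 20 of 43 rose and 9 fell (median log2 0.20, or 0.25 with dim groups at their bound). EXO (AT4G08950), exordium, an extracellular protein tied to cell expansion, gave 772, 836 and 771 on soil and 149, 144 and 155 on plates, 5.3-fold higher (adjusted p = 2.1e-18).

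Root hair genes ran the other way. EXPA7 (AT1G12560), a root hair expansin, gave 21.9, 49 and 44.7 on soil and 147, 128 and 149 on plates, 3.87-fold lower on soil (adjusted p = 4.3e-09). EXPA18 (AT1G62980), the second hair expansin, gave 63.7, 62.9 and 72 against 159, 152 and 164, 2.39-fold lower (adjusted p = 7.3e-13). AT1G30870 gave 112, 142 and 138 against 504, 427 and 423, 3.46-fold lower (adjusted p = 1e-12). For each of these 3 genes every soil array was below every plate array. XTH26, of root hair walls, was dim in both groups, so its passing difference carries no fold. SCN1, which restricts where hairs start, gave 362 ± 15.2 and 371 ± 20.6 (adjusted p = 0.6), and FER, the FERONIA receptor kinase, gave 544 ± 16.7 and 499.8 ± 11.1 (adjusted p = 0.071). The count was 4 of 6 tested genes lower (median log2 −1.53, or −1.26 with dim groups at their bound, which leaves out XTH26). The summed signal of the 5 root hair markers ran from 575 to 617 on soil and from 1081 to 1204 on plates.

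The tested cell division genes were mostly higher on soil. The aurora kinase AUR2 (AT2G25880), which acts on spindle and cell plate, gave 134, 137 and 121 against 51.5, 45.1 and 32.3 and rose 3.09-fold (adjusted p = 7.5e-10). AUR1 (AT4G32830) gave 195, 209 and 221 against 108, 102 and 121, a rise of 1.9-fold (adjusted p = 1.8e-09). TOPII, topoisomerase II, rose 2.74-fold to 187 ± 31.2 (adjusted p = 1.3e-08). PRL (AT4G02060), PROLIFERA or MCM7, a subunit of the replicative helicase, rose 1.82-fold to 158 ± 5.85, and ICU2, the catalytic subunit of DNA polymerase alpha, 2.33-fold to 56.4 ± 5.25 (adjusted p = 5.7e-08 and 2.9e-06). The centromeric histone gene HTR12 rose 2.28-fold to 47 ± 4.23 (adjusted p = 2e-06). Of 10 tested genes 9 rose (median log2 1.0, or 0.89 with dim groups at their bound). The one that fell, SIM (AT5G04470), is the cyclin-dependent kinase inhibitor SIAMESE, at 249.8 ± 8.95 on soil and 437 ± 36.3 on plates (adjusted p = 8.4e-10). Together the 3 measured markers of dividing cells, AUR1, AUR2 and PRL, summed to 482 to 506 on soil and 230.3 to 253 on plates.

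The H2B histone genes HTB1, HTB2, HTB4 and HTB11 rose 2.47-, 3.0-, 1.82- and 1.8-fold (adjusted p = 2.5e-10, 7.6e-13, 3.3e-08 and 1.6e-08). Linker histones fell. HIS1-3 (AT2G18050), the linker histone induced by drought and low light, gave a dim 17, 11.8 and 11.7 on soil and 129, 134 and 147 on plates, at least 5.2-fold lower (adjusted p = 9.8e-17). HON4, with a linker histone domain, fell 1.33-fold to 165 ± 18.9 (adjusted p = 0.00039). The tubulin gene TUB7 rose 2.43-fold to 447 ± 9.41 (adjusted p = 1.3e-13), and SP1L2 (AT1G69230), of the SPIRAL1 family of microtubule proteins, gave 324, 307 and 328 against a dim 13.4, 9.5 and 16.6, at least 13.3-fold higher (adjusted p = 6.5e-16). TET9, a tetraspanin, gave 60.8 ± 2.05 against a dim 4.73 ± 2.71 and was at least 2.54-fold higher (adjusted p = 1.2e-09). AGL19, a MADS-box factor of roots and flowering, was at least 3.66-fold higher at 87.5 ± 2.8 (adjusted p = 4.6e-12), and AGL42 rose 2.59-fold to 91.2 ± 2.45 (adjusted p = 3e-10).

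**Figure D2:**
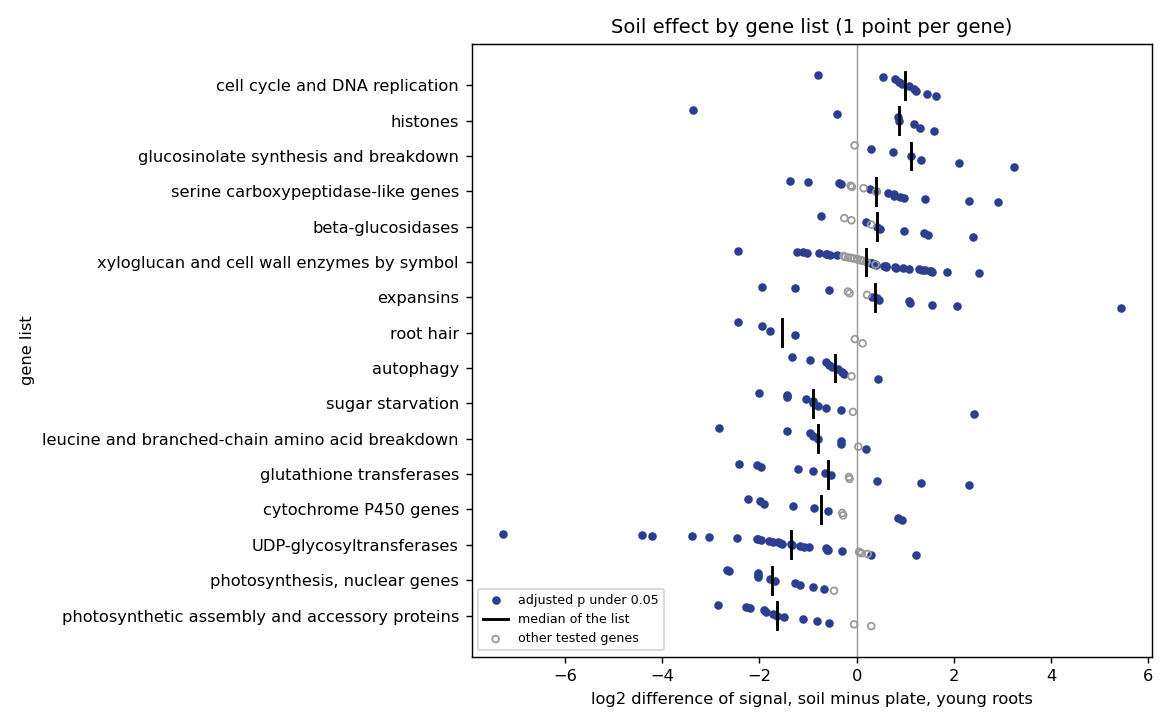
Log2 difference of signal, soil minus plate, for each tested gene of 16 gene lists in young roots; filled points passed an adjusted p of 0.05, open points did not, and vertical bars are list medians. Cell cycle genes sit right of 0 apart from SIM, and UDP-glycosyltransferase and nuclear photosynthesis genes lie mostly left of 0; some of the leftmost points are genes dim on soil, whose fitted value is no bound.

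Some flavonoid and phenylpropanoid genes were among the strongest falls on soil. CHIL (AT5G05270), a chalcone isomerase-like protein that aids the first step of flavonoid synthesis, gave a dim 12.6, 6.06 and 10.5 on soil and 447, 508 and 556 on plates, at least 19.1-fold lower (adjusted p = 3.7e-13). UGT78D2 (AT5G17050), which adds glucose to flavonols and anthocyanidins, gave 22.5, 20.2 and 18.1 against 389.9, 353 and 381, at least 14.2-fold lower (adjusted p = 2.7e-18). UGT84A1 (AT4G15480), which makes glucose esters of hydroxycinnamates, gave 0.424, 0.528 and 1.35 against 114, 108 and 93.4, at least 3.98-fold lower (adjusted p = 6.5e-16). All 3 genes were dim on every soil array and bright on every plate array. HYH (AT3G17609), a close relative of the light-response factor HY5, was likewise dim on soil, at 4.35, 6.27 and 7.37 against 115, 105 and 122, at least 4.33-fold lower (adjusted p = 3.1e-10). Each of the 3 tested flavonoid genes fell, the last being UGT78D1, a flavonol rhamnosyltransferase, at a dim 11.7 ± 4.15 against 36.6 ± 3.56 (adjusted p = 9e-06). The phenylpropanoid and lignin list was less uniform, with 6 of 10 tested genes lower (median log2 −0.66). In it CCR2 rose (log2 1.01, adjusted p = 1.3e-07), and HCT, CCOAMT and PRX52 did not pass.

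The UDP-glycosyltransferases, enzymes that attach sugars to hormones, phenolics and foreign compounds, were lower as a family. Of 30 tested genes 24 fell and 2 rose, and 18 of the falls were at least 2-fold (median log2 −1.34, or −0.82 with dim groups at their bound). UGT73B1, UGT73B4 and UGT73B5, a cluster of related genes, were at least 12.6-, 4.4- and 4.94-fold lower (adjusted p = 4e-18, 1.5e-12 and 1.1e-10). UGT72E1 and UGT72E2, which glucosylate monolignols, fell 3.92-fold to 143 ± 5.2 and 2.53-fold to 188 ± 19.6 (adjusted p = 7.9e-16 and 3.5e-13). UGT76C2, which inactivates cytokinins, and UGT74D1, which glucosylates auxins, fell 1.98- and 2.98-fold (adjusted p = 3.4e-10 and 2.5e-14). The exceptions that rose were UGT74B1 of the glucosinolate pathway and UGT71C3, at 131 ± 8.71 against 56.5 ± 5.8 (adjusted p = 1.4e-09). Members of a subfamily are alike in sequence, and cross-hybridisation between them was not tested.

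Other genes of chemical detoxification moved with them. Of 12 tested glutathione transferases 7 fell and 3 rose (median log2 −0.59, or −0.59 with dim groups at their bound). GSTU25 fell 5.38-fold, from 362, 429 and 452 on plates to 61.6, 75.5 and 96.7 on soil, and GSTU22 3.91-fold to 116 ± 6.55 (adjusted p = 1.2e-14 and 4.5e-16). ATGSTF13, of the phi class, went the other way, at 186, 209 and 183 on soil and 36, 42.8 and 38.3 on plates, 4.95-fold higher (adjusted p = 4.4e-14). The cytochrome P450 genes CYP71B23 and CYP71B6 fell 4.69- and 2.48-fold (adjusted p = 1.8e-14 and 2.7e-13), and of 10 tested P450 genes 6 fell and 2 rose. PRX71 (AT5G64120), a class III peroxidase of the cell wall, gave 26.9, 29.7 and 32.1 on soil and 1847, 1667 and 1839.7 on plates, 60.4-fold lower with no overlap (log2 −5.92 ± 0.10, adjusted p = 2.7e-22). Its soil signals lay just above the 40th percentiles of those arrays, 25.6, 26.5 and 26.7, so the size of this fold is uncertain. Other peroxidase genes differed in direction, since PRX72, which acts in lignin formation, fell 2.02-fold to 288 ± 3.52 while PRX25 rose 4.36-fold to 323 ± 12.9 (adjusted p = 5.8e-12 and 4.3e-16). MSRB6 (AT4G04840), a methionine sulfoxide reductase, was at least 19.1-fold lower, at a dim 23.1, 16.2 and 21.1 against 499, 505 and 500.1 (adjusted p = 5e-20).

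Nuclear genes of photosynthesis were lower on soil. RCA (AT2G39730), Rubisco activase, gave 38.5, 37.1 and 44.9 on soil and 249, 222 and 267 on plates, 6.13-fold lower (adjusted p = 5.4e-16). ATPC1 (AT4G04640), the gamma subunit of the chloroplast ATP synthase, gave 46.6, 40.5 and 50.7 against 309, 269 and 297, 6.36-fold lower (adjusted p = 3.6e-14). LHCB4.1 (AT5G01530), an antenna protein of photosystem II, gave 48.6, 46.1 and 43.5 against 185, 181 and 201, 4.1-fold lower (adjusted p = 2e-14). Soil and plate arrays did not overlap for any of these 3. Of 12 tested genes 11 fell (median log2 −1.73, or −1.39 with dim groups at their bound), and PSAE-1, of photosystem I, gave 29.3 ± 5.32 and 40.2 ± 4.72 (adjusted p = 0.21). Assembly and accessory proteins of the thylakoid fell in 11 of 13 (median log2 −1.64, or −0.62 with dim groups at their bound). Among them LIL3:2, a light-harvesting-like protein of chlorophyll synthesis, gave 25.6 ± 2.83 on soil and 185 ± 20.3 on plates, and PGRL1B, of cyclic electron flow, 24.7 ± 2.15 and 90.6 ± 11.8 (adjusted p = 1e-14 and 2.2e-11). On soil these were above the 40th percentile on 2 and 1 of 3 arrays, so no fold is given. NTRC, a plastid thioredoxin reductase that non-green plastids also use, gave 61 ± 4.4 and 63.2 ± 2.53 (adjusted p = 0.65). CHLM, a methyltransferase of chlorophyll synthesis, fell 2.85-fold to 73.5 ± 4.36 (adjusted p = 4.8e-14).

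The same genes serve as markers of green shoot tissue. Of 27 listed green-tissue markers 6 were measured, and all 6 were lower on soil. Their summed signal ran from 138 to 147 on the soil arrays and from 500.3 to 562 on the plate arrays. On soil 4 of the 6, namely LHCB4.2, LHCB4.3, SBPASE and PRK, were dim on every array, and on plates none was. Among these dim genes the call was lost for PRK (adjusted p up to 0.16, without replicate A of ATGE_94), LHCB4.2 (up to 0.28, without replicate A of ATGE_3) and SBPASE (0.17, without replicate C of ATGE_3). The part of green tissue in the lower photosynthesis signals, and in other genes that fell on soil, was not tested.

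Plastid-encoded genes did not follow the nuclear ones as a block. Of 66 tested plastid genes 28 were lower on soil, 14 were higher and 24 did not pass (median log2 −0.23, or −0.22 with dim groups at their bound). The lower ones included the photosystem I core genes psaB and psaA. The gene psaB gave 187, 237 and 232 on soil and 962, 706 and 1171 on plates, 4.26-fold lower (adjusted p = 2.5e-10), and psaA was 2.11-fold lower (adjusted p = 0.0034). The photosystem II antenna gene psbC fell 3.05-fold to 86.5 ± 11.7, and petB, for cytochrome b6, 2.62-fold to 367 ± 86.4 (adjusted p = 8.6e-09 and 5.9e-09). The ATP synthase genes atpA, atpB, atpE and atpF were lower by 1.52-, 1.65-, 1.94- and 1.64-fold (adjusted p = 0.00022, 2.2e-05, 5.7e-08 and 0.0039, the last 0.051 without replicate C of ATGE_94). The falls reached beyond photosynthesis. The gene rpoC1, of the plastid RNA polymerase, fell 2.02-fold and accD, of fatty acid synthesis, 2.1-fold (adjusted p = 1.3e-06 and 3.1e-05).

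The plastid genes that were higher on soil came from several complexes. The NDH complex passes electrons into the thylakoid quinone pool. Its subunit gene ndhG gave 174, 103 and 146 on soil and a dim 13.5, 11.5 and 14 on plates, at least 5.77-fold higher (adjusted p = 8.4e-14). A second subunit gene, ndhF, gave 122, 65.1 and 62 against a dim 4.68, 1.02 and 5.04, at least 3.3-fold higher, with a wide spread (log2 SE 1.05, adjusted p = 0.00037). The gene ndhE rose 4.17-fold to 83.9 ± 14.9 (adjusted p = 6.9e-07), whereas ndhA and ndhI lay 1.34- and 1.24-fold lower (adjusted p = 0.045 and 0.046). Both of these last calls were borderline. Each was lost when any of 4 arrays, not the same 4 for both, was left out, with adjusted p of up to 0.34 for ndhA and 0.39 for ndhI. Of the short subunit genes of the cytochrome b6f complex petN and petG were higher and petL was lower, petN at 187, 126 and 141 against a dim 8.31, 12.9 and 22.9 (at least 6.22-fold, adjusted p = 5.3e-10) and petG 3.08-fold to 64 ± 14.4 (adjusted p = 1.3e-06). The signal of petL was 108 ± 21.6 on soil and 161 ± 19 on plates (adjusted p = 0.0087, or 0.053 without replicate A of ATGE_3). The ribosomal protein gene rps14 was at least 3.17-fold higher at 76.4 ± 11.3 (adjusted p = 8.8e-10). Higher as well were petD of the cytochrome complex and psbT of photosystem II, at fitted log2 2.47 and 2.31 (adjusted p = 1.3e-08 and 2.9e-09). So was rpoB of the plastid RNA polymerase, at 1.27 (adjusted p = 0.0028), whereas petB and rpoC1 fell. Photosystem, cytochrome, polymerase and ribosome genes therefore stood on both sides. Why genes of one complex differed in direction was not tested. Among mitochondrion-encoded probe sets 3 of 16 were higher and 5 lower on soil, with ccb382, a cytochrome c maturation gene, at 126, 223 and 208 against 636, 569.8 and 812 (3.7-fold lower, adjusted p = 4.6e-10).

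**Figure D3:**
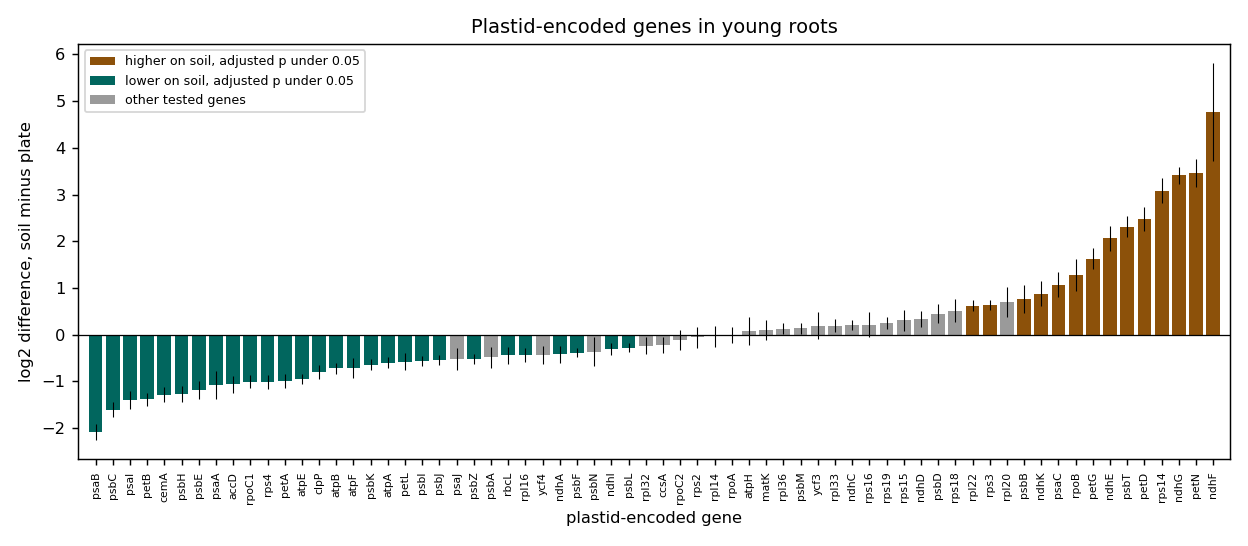
Log2 difference of signal, soil minus plate, of the 66 tested plastid-encoded genes in young roots, ordered by size; bars are fitted differences, lines their standard errors, and colours mark genes past an adjusted p of 0.05. The bars run from psaB, lower on soil, to ndhF, higher on soil, with 24 genes between that did not pass.

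Genes that respond to low energy supply were lower on soil. MGL (AT1G64660), methionine gamma-lyase, gave 36.1, 38.6 and 39.8 on soil and 275, 267 and 277 on plates, 7.15-fold lower (adjusted p = 2.5e-19). IVD (AT3G45300), isovaleryl-CoA dehydrogenase of leucine breakdown, gave 152, 151 and 151 against 380.4, 442 and 404, 2.7-fold lower (adjusted p = 8e-15). The methylcrotonyl-CoA carboxylase subunits MCCA and MCCB, which act right after IVD, fell 1.86-fold to 239.6 ± 5.2 and 1.73-fold to 227 ± 5.7 (adjusted p = 9.7e-11 and 1.5e-06). Enzymes of consecutive steps thus fell together. LKR, which starts lysine breakdown, fell 1.94-fold to 173 ± 8.54 (adjusted p = 1.4e-11). Of 9 genes of amino acid breakdown 7 fell and 1, ETFBETA, rose, at 132 ± 6.72 against 115 ± 3.49 (adjusted p = 0.035, up to 0.14 without replicate A of ATGE_3, median log2 −0.79). The sugar starvation list, which shares IVD, MCCA, MCCB and ETFQO with it, had 9 of 11 genes lower (median log2 −0.90, or −0.90 with dim groups at their bound). Its one rise was EXO, given above with the wall genes. AKINBETA1 (AT5G21170), a beta subunit of the SnRK1 energy-sensing kinase, fell 1.87-fold to 238 ± 15.7 (adjusted p = 3.7e-10). PDC2 (AT5G54960), pyruvate decarboxylase of ethanol fermentation, gave 57.6, 73.3 and 68.2 against 391, 372 and 354, 5.63-fold lower (adjusted p = 4.3e-18).

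Autophagy genes, which serve the recycling of cell contents, were lower by smaller amounts. Of 10 tested genes 8 fell and 1 rose (median log2 −0.45). ATG8F and ATG8H, ubiquitin-like proteins of the autophagosome membrane, fell 1.95-fold, from 894 ± 70.3 to 458 ± 19.3, and 2.5-fold, from 269.8 ± 19.3 to 108 ± 8.97 (adjusted p = 1e-10 and 2.7e-11). ATG8G was the exception, at 96.6 ± 6.27 against 71.3 ± 7.96 (adjusted p = 0.0012). GAMMA-VPE (AT4G32940), a vacuolar protease that activates other vacuolar proteins, gave 206, 199 and 223 on soil and 982, 909 and 860.1 on plates, 4.38-fold lower (adjusted p = 6.1e-17). ALPHA-VPE was at least 2.3-fold lower, from 60.4 ± 1.41 on plates (adjusted p = 5.2e-11), and BETA-VPE, best known from seeds, rose 2.21-fold to 81.2 ± 7.66 (adjusted p = 7.1e-08).

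Sugar carriers were divided in direction. SWEET2 (AT3G14770), a glucose carrier of the vacuole that is known to limit sugar loss from roots, gave 52.9, 41.6 and 44.1 on soil and 270.5, 236 and 187 on plates, 4.98-fold lower (adjusted p = 3e-13). SFP1, a sugar carrier of the ERD6 family, and the vacuolar sugar importer TMT1 fell 2.36- and 1.69-fold (adjusted p = 1.3e-12 and 1.8e-05). Of 12 tested genes listed as sugar carriers, 5 fell and 3 rose, the latter being SWEET1, SWEET13 and SWEET14 (adjusted p = 0.0063, 2.5e-07 and 0.0089, the last 0.058 without replicate A of ATGE_94). Among the 5 is OCT1, an organic cation and carnitine transporter and no sugar carrier, dim in both groups. The fructan exohydrolase gene cwINV6 (AT5G11920) gave 240.0, 219 and 234 against 50.8, 40.8 and 53.7, 4.8-fold higher on soil (adjusted p = 2e-14).

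Tested genes of dehydration, nutrients and auxin changed in both directions, and some did not pass. The dehydrin genes LTI30 (AT3G50970) and COR47 (AT1G20440), whose proteins protect cells during drying and cold, were bright in both groups. LTI30 gave 504, 512 and 504 on soil and 1125, 1143 and 1231 on plates, 2.3-fold lower, and COR47 gave 924 ± 32.3 against 1888 ± 207, 2.04-fold lower (adjusted p = 3.3e-14 and 4.5e-11). HVA22C, of another dehydration-induced family, moved the opposite way, 2.93-fold higher at 165 ± 19.5 (adjusted p = 1.6e-10). Of 8 dehydration genes 6 fell and 2 rose (median log2 −0.61, or −0.61 with dim groups at their bound). BHLH101 (AT5G04150), a transcription factor raised by iron shortage, gave a dim 8.54, 11.2 and 7.77 on soil and 43.7, 39.7 and 42 on plates, at least 1.59-fold lower (adjusted p = 0.0017). F6'H1, which acts in the synthesis of the coumarin scopoletin, fell 1.36-fold to 602 ± 17.7 (adjusted p = 6.2e-07). PYE, a repressor in the response to iron shortage, gave 70.1 ± 5.59 and 61 ± 5.73 (adjusted p = 0.1). Of 5 tested iron genes 3 fell and 1, BGLU42, rose (log2 0.47, adjusted p = 7.6e-05). LPR1 (AT1G23010), a multicopper oxidase of the root tip's phosphate response, was at least 3.13-fold lower, at a dim 15.3 ± 0.778 against 82.6 ± 8.08 (adjusted p = 3.4e-14). LPR2, the other of 2 tested phosphate starvation genes, did not pass (log2 −0.11, adjusted p = 0.29). The auxin-conjugating enzyme gene GH3.3 gave a dim 6.84, 4.86 and 2.92 against 26.4, 31.7 and 34.9 (at least 1.17-fold lower, adjusted p = 6.6e-07), and the auxin response repressor gene IAA30 was at least 1.19-fold higher at 28.8 ± 4.67 (adjusted p = 0.00011). NDB2, an alternative NADH dehydrogenase of mitochondria, fell 2.7-fold to 92.1 ± 11.2 (adjusted p = 3.3e-11).

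Genes that the annotation names only by locus tag made up most of the largest changes in either direction, and no role is given for them here. AT3G57020 had the brightest plate signals among them, 1490.3, 1342 and 1514, against a dim 16, 17.2 and 18 on soil, at least 55.1-fold lower (adjusted p = 4.7e-22). AT1G22750 gave 475, 495 and 469.8 on plates and a dim 16.9, 16.8 and 20.9 on soil, at least 18.3-fold lower (adjusted p = 5e-21). In the other direction AT5G44400 gave 472, 520.1 and 523 on soil and a dim 14.4, 15.1 and 12.8 on plates, at least 21.1-fold higher (adjusted p = 3.2e-22). These genes were bright on all arrays of one group and dim on all of the other. AT4G27654, AT1G15010 and AT1G52820 were at least 14.9-, 14.3- and 11.3-fold higher on soil (adjusted p = 2.4e-15, 4.7e-19 and 3.9e-19). AT2G23910, AT3G56290 and AT5G62210 were at least 15.6-, 11- and 9.07-fold lower (adjusted p = 3e-19, 3.8e-16 and 5.2e-16).

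Most of the young soil effect was also seen in the later harvests, which share no array with it. Between ATGE_9 on soil and ATGE_98 on plates 10206 probe sets passed (66.8%), 33.9% of those tested being higher on soil and 32.9% lower. Of the probe sets higher on soil in young roots 71% were also higher in older roots and 4.75% lower, and the shared ones were 73.6% of those higher in older roots. For the lower probe sets the shares were 76.2%, 4.26% and 70.5%. Across the tested probe sets, which are not independent replicates, both effects correlated with Pearson's r of 0.794 and Spearman's rho of 0.764. AT4G33720, STZ, ORA47, PRX71, CHIL and UGT78D2 all kept their direction, with older log2 differences of 8.32, 2.11, 5.19, −5.81, −6.85 and −4.01, fitted values that for 4 of them (AT4G33720, ORA47, CHIL and UGT78D2) involve dim groups. The green-tissue markers summed to 133 to 152 in ATGE_9 and 632 to 680.4 in ATGE_98, so the same gap in these markers ran through both harvests.

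The size of the effect differed between harvests, by the test of the difference itself, for 4654 probe sets (30.5%). Of these 2610 (17.1% of those tested) had the more positive effect in young roots and 2044 (13.4%) the more negative one, but 1767 and 3307 when arrays were centred on their medians, a choice that moves the median of this difference from 0.05 to −0.09. AT5G44400 was high in young soil roots, with 505 ± 28.7 there, 14.1 ± 1.18 on the young plates, 169.7 ± 16.7 in older soil roots and 140.0 ± 7.06 in older plate roots (difference of effects log2 4.89 ± 0.13, adjusted p = 4.7e-18). AT2G33850 gave 547 ± 36.2, 30.2 ± 3.61, 244 ± 23.7 and 221 ± 36.2 in the same order (difference 4.04 ± 0.16, adjusted p = 1e-14). SP1L2 gave 319.6 ± 10.8, 13.1 ± 3.54, 108 ± 11.7 and 58.5 ± 13.6 (difference 3.74 ± 0.27, adjusted p = 2e-10). These genes were thus far apart between soil and plate early and much closer later. PDF2.1 changed sides, higher on soil in young roots and lower in older ones (log2 2.27 and −1.37, difference adjusted p = 1e-14). So did PR-1-LIKE, at 1.31 and −0.69 (difference adjusted p = 7.5e-08), and the chitinase gene CHI, at 0.72 and −1.25 (difference adjusted p = 1.8e-09).

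Some heat shock and co-chaperone genes had the more negative effect in young roots. Of 8 tested genes of this list 3 passed the test of the difference in that direction, namely Hop3, FKBP65 and CRT1b. Hop3 (AT4G12400), a co-chaperone that links HSP70 and HSP90, was 2.66-fold lower on soil in young roots, at 26.6, 41.2 and 23.6 against 91.8, 74 and 71.5 (adjusted p = 2.2e-07), and higher on soil in older roots (log2 1.85 ± 0.17). The difference between harvests was −3.26 ± 0.25 (adjusted p = 5.4e-10). FKBP65 (AT5G48570), a heat-induced immunophilin, gave 43.1 ± 2.17 and 43 ± 4.62 in young roots (adjusted p = 0.94) and a log2 difference of 3.53 in older ones (difference adjusted p = 5.4e-15). CRT1b, for the chaperone calreticulin, gave 0.36 and 0.83 (difference adjusted p = 9.6e-05). The difference did not pass for the rest, among them the small heat shock protein gene ATHSP22.0 (adjusted p = 0.37), Hsp70-2 with 0.68 and 0.70 (difference adjusted p = 0.95) and Hop1 with 0.49 and 0.41 (difference adjusted p = 0.67). Within young roots 5 of 8 tested heat shock genes were higher on soil and 1, Hop3, was lower. AT1G54050, AT5G51440, AT1G14200, AT2G29500 and AT2G20560, which have no name in the annotation and are given because they rank among the most negative differences, had differences from −4.49 to −3.99 on the log2 scale.

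Energy genes also differed between harvests. IVD gave log2 differences of −1.43 in young roots and −0.34 in older ones (difference −1.09 ± 0.09, adjusted p = 4.5e-09), and MCCA gave −0.90 and −0.02 (difference −0.88 ± 0.10, adjusted p = 2.8e-07). MCCB, by contrast, gave −0.79 and −0.69, and its difference did not pass (adjusted p = 0.64). BHLH101 was lower on soil in young roots, at 9.16 ± 1.78 on soil and 41.8 ± 2.01 on plates early, and 17.1 ± 3.15 and 17.2 ± 4.47 late (difference adjusted p = 0.039). The root wall gene EXLA3 kept its direction but was less far apart later, at 336 ± 21.7 on soil and 43.3 ± 6.04 on plates (difference adjusted p = 0.00097). Glucosinolate genes shifted in the same sense, with BCAT4 at log2 3.24 early and 1.97 late, and GTR1 at 2.1 and 0.66 (difference adjusted p = 3.2e-09 and 1.4e-08). The cell division genes AUR1, AUR2 and PRL gave similar effects in both harvests, with differences of −0.19 ± 0.12, 0.12 ± 0.20 and −0.04 ± 0.14 that did not pass (adjusted p = 0.25, 0.7 and 0.86).

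**Figure D4:**
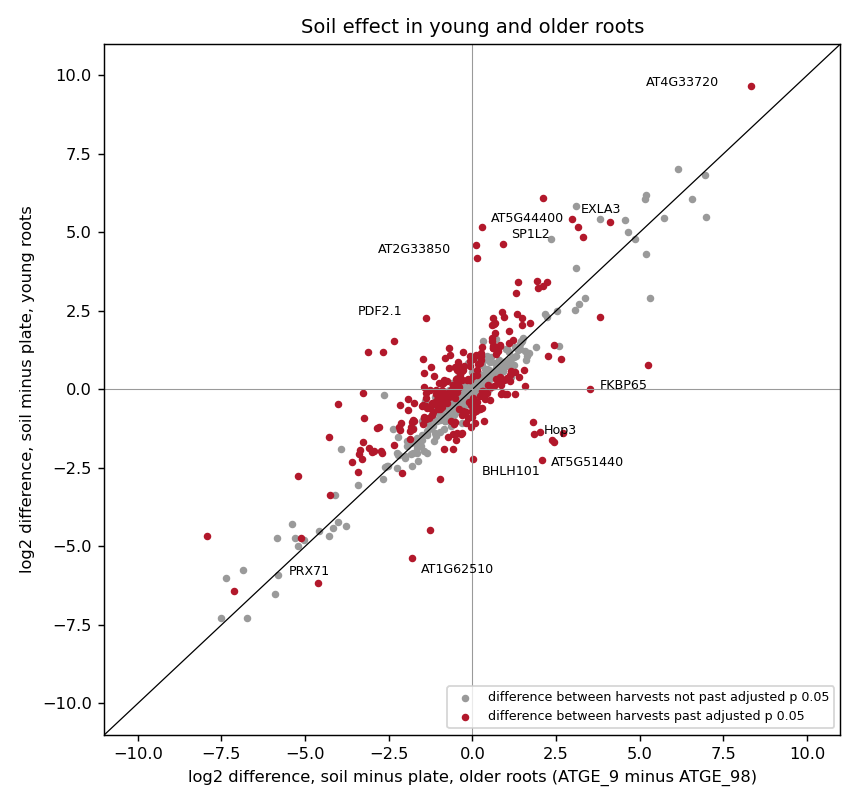
Log2 difference of signal, soil minus plate, in young roots (vertical axis) against older roots (horizontal axis), 1 point per listed or ranked gene; red points passed an adjusted p of 0.05 for the difference between harvests, and the line marks equal effects. Most points lie near the line, with AT5G44400, AT2G33850 and SP1L2 above it and Hop3, BHLH101 and AT5G51440 below it.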

How the data were processed

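Total RNA of Col-0 roots was labelled with biotin and hybridised to ATH1 arrays, 1 sample per array. The authors deposited 1 table of signal intensities on a linear scale, made with MAS5 per the submitters' processing notes, with version and settings not given in the sources used here. With 2% of values trimmed at each end, the mean signal was 100.0 on every array, and this scaling was kept. Of 22810 probe sets, 64 controls were left out. Of the rest, 13513 had 1 gene in the platform annotation, 503 several and 8730 none, and 13436 of the first were matched to a locus tag. Only probe sets with 1 gene were named, and no named gene had a second such probe set. No sequences were used here.

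Probe sets above the 40th percentile of the array on at least 3 of 21 arrays were tested (15284), on log2 signals with no pseudocount. A model of 7 group means over all 21 arrays, with 14 residual degrees of freedom, was fitted with limma 3.58.1 in R 4.3.3 (lmFit, eBayes with intensity trend). The contrasts were ATGE_3 minus ATGE_94, ATGE_9 minus ATGE_98 and their difference. Tests were two-sided with Benjamini-Hochberg adjustment within each contrast at 0.05. For a dim group, each array was set to the higher of its 40th percentile and its own value, and the ratio of geometric means is given as at least N-fold. Values after ± are SD over 3 arrays for signals and SE of the fit for log2 differences. On simulated data with the same design and 15284 probe sets, the young contrast called 90% of genes changed by log2 1 and 100% of those changed by log2 2. Only 200 simulated probe sets were changed, with independent noise, whereas 65.5% passed in the real contrast. These rates check the fit and do not describe its performance on the real data.

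The rule for the members reads labels only, but these members, the gene lists and the naming rules were chosen with earlier results of these data known. Named genes came from the 20 largest fitted rises and 20 largest falls that passed without overlap and were above the 40th percentile on all arrays of the brighter group, from the 8 largest differences each way that also passed in young roots, and from tested members of the 71 lists. Replicate letters did not pair the samples: deviations of same-letter soil and plate arrays correlated at −0.0737, 0.00218 and 0.0412. Alternatives were quantile normalization, median centring, no filter, a 60th percentile filter, a pseudocount of 6.99, no intensity trend, only the arrays compared, a replicate block and leaving out each array.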

Additional observations from a re-analysis of the deposited data

Results flagged for a closer look

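The genes below had a soil effect that differed between young and older roots by the test of the difference (limma, adjusted p under 0.05). Each value is the log2 effect in young roots minus that in older roots, and it is a fitted value where a group was dim. Such differences were found at 30.5% of all tested probe sets, and their causes were not tested. Of these 4654 calls 2610 were positive and 2044 negative. With arrays centred on their medians 5074 passed, 1767 positive and 3307 negative, and the median difference moved from 0.05 to −0.09. Whether the single calls below hold under that centring was not tested. This limit weighs most on small values, such as 0.26 for JAL34 and 0.29 for UGT74D1.

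Many genes rose on soil in both harvests, and their fitted rise was larger in young roots. For AT4G33720, CML38, EXLA3, SP1L2, AGL19, ndhG, rps14, petN, AT5G44400 and AT1G52820 the young plate group was dim. The size of their difference is therefore uncertain, and it was not tested with dim groups at their bound. Among defence and stress genes the difference was 1.34 for AT4G33720, 1.66 for GRX480, 1.19 for STZ, 1.23 for CML38, 0.77 for WRKY22 and 0.39 for OPCL1. Glucosinolate and sulfur genes followed, with 1.44 for GTR1, 1.27 for BCAT4, 1.11 for APS3, 0.72 for GSTU20 and 0.41 for AT2G31790. Wall and growth genes gave 2.47 for EXLA3, 1.46 for PRX25, 1.08 for XTH20, 0.95 for TBL36, 0.58 for EXLA1, 0.77 for cwINV6 and 0.46 for UGT71C3. The microtubule gene SP1L2 gave 3.74, the MADS-box genes AGL19 and AGL42 1.2 and 0.54, and the histone genes HTB1 and HTB2 0.68 and 0.38. Plastid genes in this class were ndhG at 2.07, rps14 at 1.78, petN at 1.53 and petG at 1.04. Of the unnamed loci AT5G44400 gave 4.89 and AT1G52820 1.55.

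Other genes rose on soil in young roots and did not pass or fell in older ones. The defence genes PDF2.1, PR-1-LIKE, OSM34 and CHI changed sides, by 3.64, 2.0, 1.98 and 1.97. The same held for EXPA8 at 1.79, GTR2 at 1.01, ATG8G at 0.81 and the root marker PYK10 at 0.65, whose rise in young roots was at the threshold (adjusted p = 0.05) and missed it under several alternatives. AT2G33850 gave 4.04, ndhE 1.48, BETA-VPE 0.90, SAG101 0.83, UGT74B1 0.35 and SIR 0.32, none of which passed in older roots in limma.

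A further class fell on soil in both harvests and fell less in young roots. It held the sugar carriers SFP1 at 1.61 and SWEET2 at 1.29, the lectins JAL22, JAL33 and JAL34 at 1.66, 0.78 and 0.26, and the detoxification genes CYP71B23, GSTU22 and CYP71B6 at 1.08, 0.97 and 0.87. The glycosyltransferases UGT72E1, UGT72E2 and UGT74D1 gave 0.76, 0.53 and 0.29, and the photosynthesis genes PRK and RCA 1.27 and 0.79. Also in it were GH3.3 at 2.46, ALPHA-VPE at 1.22, LTI30 at 0.98, HIS1-3 at 0.91, LCR69 at 0.69, EXPA18 at 0.53, CML42 at 0.52, BIK1 at 0.41 and F6'H1 at 0.33. OCT1, dim in both young groups, gave 1.41. AT3G57020 and AT1G22750 gave 0.71 and 0.41. For GH3.3, ALPHA-VPE, HIS1-3, PRK, AT3G57020 and AT1G22750 the young soil group was dim, so the size of their difference is uncertain. PSAE-1, MYC4, AOP1 and PUB24 did not pass in young roots and fell in older ones, with differences of 3.54, 0.88, 0.87 and 0.74.

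Other differences were negative. Genes that fell on soil in both harvests, and more in young roots, were MGL at −1.88, IVD at −1.09, petB at −0.94, NDB2 at −0.84, CHLM at −0.78, ATPC1 at −0.55, COR47 at −0.51, SIM at −0.51 and PRX72 at −0.37. Genes that fell in young roots and did not pass in older ones in limma were BHLH101 at −2.22, accD at −1.14, atpA at −0.88, MCCA at −0.88, AKINBETA1 at −0.77 and EXPB1 at −0.70. Genes that rose on soil in both harvests, and less in young roots, were CRT1b at −0.46, ATGSTF13 at −1.52, PDF2.5 at −1.19, XTH19 at −1.03 and AT1G54050 at −4.49. FKBP65 and SCN1 did not pass in young roots and rose in older ones, with −3.52 and −0.34. Hop3 and APS4 fell on soil in young roots and rose in older ones, with −3.26 and −0.45, as did AT5G51440, AT1G14200, AT2G29500 and AT2G20560, with −4.34, −4.12, −4.09 and −3.99.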

How the results depend on the processing

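Under the alternatives other than leaving out an array, the number of probe sets passing in young roots ran from 7927 (60th percentile filter, which tests fewer) to 10589 (no filter), against 10015. Leaving out single arrays gave 9350 to 9539 for young roots, 9508 to 9680 for older roots and 4149 to 4677 for the difference of effects. The replicate block gave 9989, 10212 and 4648. The letters share only a name here, and the block changed no call of a named gene. Centring arrays on their medians changed the split of young calls to 4634 higher and 5289 lower. Of 189 named genes, 171 kept direction and call in young roots under every alternative run for them. PYK10, the root marker, reversed to log2 −0.0935 under quantile normalization and did not pass there (adjusted p = 0.069), and the cause was not tested. With only the arrays compared, PYK10, PRK, LHCB4.2, XTH26, ndhA, ndhI, ETFBETA and OCT1 missed the threshold and PSAE-1 passed, in a fit of fewer samples. Folds are lower bounds for genes dim on all 3 arrays of a group, fitted ratios of genes above the 40th percentile on 1 or 2 of 3 arrays are less certain, and 3 arrays a group limit precision.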

Other observations

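Some further gene families leaned to one side. Of 18 serine carboxypeptidase-like genes, a family of proteases and acyltransferases, 10 were higher and 4 lower on soil in young roots, with scpl31 higher by log2 2.3 and SCPL32 at 85.3 ± 4.84 on soil and 11.8 ± 3.17 on plates, where it was dim. Beta-glucosidase genes were higher in 7 of 11 and lower in 1, and subtilase genes, for extracellular proteases, in 5 and 1 of 6. Tubulin and actin genes rose in 5 of 8 and fell in 1. Aldehyde dehydrogenase genes leaned the other way, with 5 of 8 lower and 2 higher. These counts stand beside 35.1% higher and 30.4% lower among all tested probe sets.

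Control probe sets for ribosomal RNA, which the comparisons leave out, also differed. The one for 5S rRNA gave 252, 204 and 191 on the young soil arrays and 10.3, 12.1 and 25.6 on the young plate arrays, without overlap. That for 25S rRNA gave 16.2, 75.7 and 51.3 on soil and 1959, 82.4 and 1262 on plates, so replicate B of ATGE_94 lay far below the other 2 plate arrays.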
